A study of Mus musculus with 2 samples.

Results

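The liver genes described here make, sense and export bile acids. They are 10 genes chosen by name: the synthesis enzymes Cyp7a1, Cyp8b1, Cyp27a1 and Cyp7b1, the nuclear receptors Nr1h4 and Nr0b2, the canalicular pumps Abcb11 and Abcb4, and the 2 subunits of the basolateral exporter, Slc51a and Slc51b. All 10 had a probe, 11 probes in all, on an array that carried probes for 31044 genes. Of the 10, 9 were measured on both arrays, and Slc51a was not well above background on either.

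RNA from mouse liver was hybridised to 2 one-colour Agilent arrays. The wild-type group (labelled WT) and the knockout group (Pnpla8-/-) were both C57BL/6N, and each was represented by 1 array of RNA pooled in equal amounts from 5 animals. The sample labels give an age of 6 weeks, whereas the study's design text gives 8 weeks. Pnpla8 encodes a calcium-independent phospholipase A2, and the labels name no other allele, treatment, promoter or Cre. They also leave the sex of the animals, their feeding state and the hour of collection unstated. With 1 pool per genotype no spread between animals could be measured and no p-value is given.

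Bile acids are made from cholesterol in hepatocytes. The classical route starts with the cholesterol hydroxylase Cyp7a1, the rate-limiting step, and the sterol hydroxylase Cyp8b1 directs its products towards cholic acid; the alternative route starts with the mitochondrial sterol hydroxylase Cyp27a1 and continues through the oxysterol hydroxylase Cyp7b1. Bile acids bind FXR, encoded by Nr1h4, which induces the repressor SHP (Nr0b2), the bile salt export pump (Abcb11), the phospholipid floppase of the canaliculus (Abcb4) and the OSTα/OSTβ exporter (Slc51a and Slc51b), and which lowers Cyp7a1 and Cyp8b1. OSTα and OSTβ work as a dimer, and the exporter is known above all from ileum, kidney and bile duct cells, with little in healthy mouse hepatocytes.

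Each of the 10 genes had a single 60-base probe, apart from Abcb4 with 2, so the probe decides what was measured. The 6 probes below are shown as examples, and the Cyp7a1 probe is not among them. They are the pair for the exporter, the probes for Cyp8b1 and Nr0b2, the brighter of the 2 Abcb4 probes and the Cyp27a1 probe. Of all the probes of the 10 genes, that for Cyp27a1 alone was spotted 10 times. Each of the 6 is written 5′ to 3′ in lower case as the array files give it, with nothing marked in capitals.
Slc51b: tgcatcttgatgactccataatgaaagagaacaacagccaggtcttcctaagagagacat
Slc51a: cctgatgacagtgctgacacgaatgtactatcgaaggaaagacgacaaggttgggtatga
Cyp8b1: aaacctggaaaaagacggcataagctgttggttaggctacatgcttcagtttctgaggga
Nr0b2: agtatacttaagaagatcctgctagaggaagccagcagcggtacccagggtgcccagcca
Abcb4: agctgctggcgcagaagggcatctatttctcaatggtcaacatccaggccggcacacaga
Cyp27a1: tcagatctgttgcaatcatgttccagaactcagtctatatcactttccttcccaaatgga

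In the mouse build mm9, which the array file headers name, these probes lie at chr9:65260705-65260764 on the minus strand (Slc51b, NM_178933), chr16:32475871-32475930 minus (Slc51a, NM_145932), chr9:121824595-121824654 minus (Cyp8b1, NM_010012), chr4:133109694-133109753 plus (Nr0b2, NM_011850), chr5:8959108-8959167 plus (Abcb4, NM_008830) and chr1:74782203-74782262 plus (Cyp27a1, NM_024264). The others lie at chr4:6193456-6193515 minus (Cyp7a1, NM_007824), chr3:17972286-17972345 minus (Cyp7b1, NM_007825), chr10:88917222-88917281 minus (Nr1h4, NM_001163504), chr2:69076365-69076424 minus (Abcb11, NM_021022) and chr5:8899682-8899741 plus (the second Abcb4 probe, AK165484). Whether a probe lies in a coding exon or an untranslated region was not analysed here, since no annotation of that build was used.

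Processed signals (background-subtracted spot brightness, in the scanner's linear units) were divided by each array's 75th percentile, 1207 for the wild-type pool and 1018 for the knockout pool. Values are log2 ratios of knockout over wild type on that scale. Of 43020 spots per array, 70.1% (wild type) and 65.6% (knockout) were well above background, no spot was saturated, and the median log2 ratio of the 19951 genes measured on both arrays was 0.04. The scanner software's own error for a spot comes to 0.20 or 0.21 on the log2 ratio of each measured bile acid gene probe. It is nearly the same share of the signal for dim and bright probes, and not a spread measured over spots. Repeated spots of a probe differed less, with a median SD of the ratio of 0.05 over 290 probes. The software error refers to the spot, not the animals, and is given only as a rough guide. The Pnpla8 probe read 144.5 ± 14.9 (software error) in wild type. In the knockout it read 4.45, which is not well above background and at least 6.81-fold lower. The deleted part of the gene is not stated, and a probe outside it would check nothing.

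Both enzymes that set the amount and the kind of classical-route bile acids read higher in the Pnpla8-/- pool, while Cyp7b1 of the alternative route did not. Cyp7a1 had a signal of 7017 ± 702 (software error) in the wild-type pool and 10956 ± 1096 in the knockout pool. The scaled log2 ratio was 0.89 (1.85-fold), and 1.84% of measured genes lay higher. Cyp8b1 read 1422 ± 142 and 2176 ± 218, a log2 ratio of 0.86 (1.81-fold), and 1.98% of genes lay higher. In both genes the knockout signal was the higher one even before scaling, and the difference exceeded the software error of 0.20. In a bulk tissue pool, more cells of a type and more RNA per cell cannot be told apart, here and in each ratio that follows.

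The alternative route gave smaller ratios. Cyp27a1 was the member with within-array replication, since its probe occupied 10 spots: the signal was 3620 ± 187 (SD over 10 spots, 3385 to 3869) in wild type and 3983 ± 187 (3745 to 4249) in the knockout. The unscaled spots of both pools overlap, and the scaled log2 ratio was 0.38 ± 0.03 (SD over 10 spots), with each spot between 0.31 and 0.42. This is 1.30-fold, and 10.2% of genes lay higher. The spots are repeats of one hybridisation, so the small SD describes the array and not the mice. Cyp7b1 read 3627 ± 363 in wild type and 2898 ± 290 in the knockout, a log2 ratio of -0.08, inside the software error.

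Ratios of genes on the same 2 arrays can be set against each other without choosing a scaling factor, since a constant factor cancels. For genes with 1 probe in 1 spot, other filters and probe summaries leave the difference unchanged as well. Only quantile scaling, loess scaling and the normexp background correction could move it. The ranges of such differences over the alternatives rest on these alone. The log2 ratio of Cyp7a1 exceeded that of Cyp7b1 by 0.97 (combined software error 0.29), with 0.95 to 0.97 over 13 alternative ways of processing, and that of Cyp8b1 exceeded Cyp7b1 by 0.94 (0.90 to 0.97). Cyp7a1 exceeded Cyp27a1 by 0.50 (error 0.29, 0.48 to 0.50 over the alternatives). Cyp7a1 and Cyp8b1 differed by 0.03 (error 0.29; -0.03 to 0.05), so their order is not resolved. The ratios of the classical-route enzymes and of Cyp7b1 were thus unequal whatever factor scales the arrays. Such a difference does not show which gene stayed level.

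**Figure D1:**
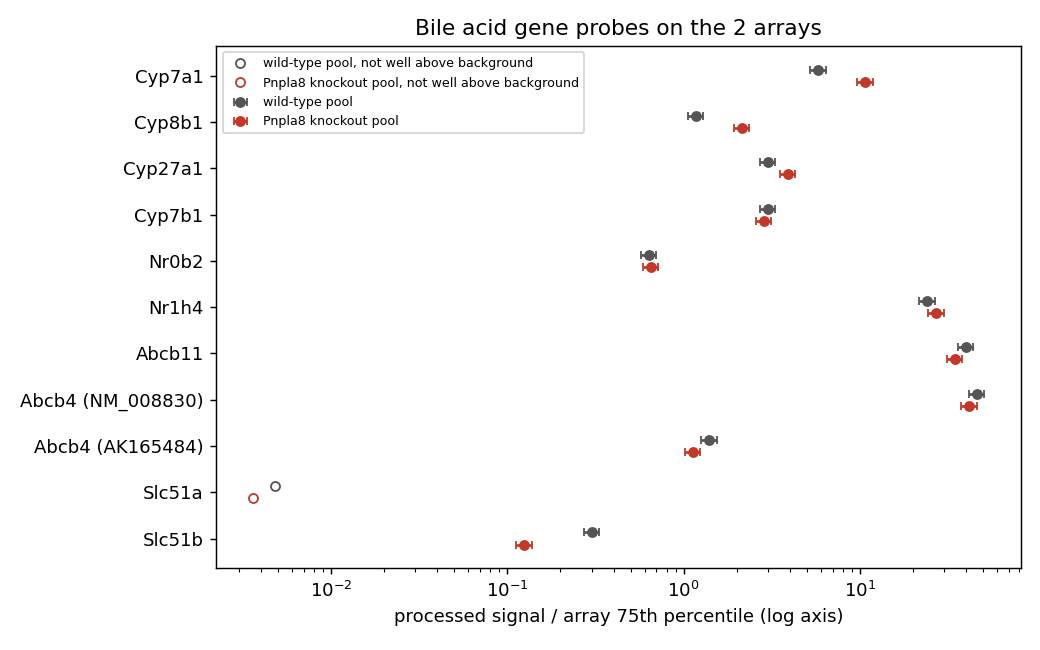
Processed signal of each bile acid gene probe divided by its array's 75th percentile (log axis), in the wild-type pool (grey) and the Pnpla8 knockout pool (red), 1 array each; bars are the scanner software's error and open circles mark signals not well above background. Points are to be compared within a row, since probes differ in brightness: Cyp7a1 and Cyp8b1 lie to the right in the knockout and Slc51b to the left, while the open Slc51a points give no fold.

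The sensors of the pathway read nearly the same in both pools. Nr1h4, the bile acid receptor itself, had one of the bright probes, 29208 ± 2921 in wild type and 27646 ± 2765 in the knockout, and a log2 ratio of 0.17, below the software error; 30.5% of genes lay higher. Its direction turned to -0.08 when the arrays were not scaled. Nr0b2, the repressor that FXR induces and that lowers Cyp7a1 and Cyp8b1, read 768.5 ± 76.9 and 662.0 ± 66.3, a log2 ratio of 0.03. Its rank was near the middle, with 51.7% of genes above it, and its direction turned without scaling (-0.22) and with spike-in scaling (-0.13). The ratio of Cyp7a1 exceeded that of Nr0b2 by 0.86 (error 0.29), and by 0.74 to 0.86 over the 13 alternatives.

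The canalicular pumps read slightly lower in the knockout, by about the software error for Abcb11 and by less than it for the bright Abcb4 probe. Abcb11, which secretes bile salts into the canaliculus, had a signal of 48157 ± 4816 in wild type and 35256 ± 3526 in the knockout, a log2 ratio of -0.20 beside a software error of 0.20. Abcb4, which delivers phosphatidylcholine to bile, had 2 probes: the bright one read 55575 ± 5557 and 42674 ± 4267 (log2 ratio -0.14), and the dim one 1692 ± 169 and 1150 ± 115 (-0.31). Both Abcb4 probes lay below 0, and their median was -0.22. That median depends on the dim probe, which was designed on a different transcript record from the bright one. Lower ratios were held by 19.5% of all genes for Abcb11 and 18.2% for Abcb4, so neither stands far from the bulk. Both stayed below 0 in all 13 alternatives, from -0.45 to -0.14 for Abcb11 and from -0.47 to -0.14 for Abcb4. Several of these alternatives leave a gene with a single probe, such as Abcb11, unchanged. The 2 pumps differed from each other by 0.02 (error 0.29), which leaves their order unresolved.

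Slc51b held the most negative ratio of the group. The probe for this β subunit of the basolateral exporter read 363.0 ± 36.4 in the wild-type pool and 127.1 ± 13.4 in the knockout pool, both well above background. Before background subtraction the spot read 438.7 over a local background of 26.5 in wild type and 188.2 over 27.5 in the knockout. The log2 ratio was -1.27 with a software error of 0.21 (2.41-fold lower), and 0.677% of genes lay lower. It lay below that of Abcb11 by 1.06 (error 0.29), a difference that ran from -1.06 to -0.69 over the alternatives. With the normexp background correction, which adds an offset and draws dim genes together, Slc51b was at -0.95, short of 2-fold, and over all 13 alternatives it ran from -1.51 to -0.95.

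Slc51a, the α subunit, read 5.79 ± 3.01 in wild type and 3.65 ± 3.64 in the knockout. Both are close to the negative controls, whose median signals were 3.51 and 4.28, and no fold can be given for it. The exporter's 2 subunits thus could not be compared: the arrays give a ratio for the β subunit and, for the α subunit, only that its probe was not well above background in either pool.

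As a group the 9 measured genes split evenly, 5 above 0 and 4 below 0, with a median log2 ratio of 0.03 against 0.04 over all genes. At 2-fold, none was higher (1.29% of all genes measured were) and 1, Slc51b, was lower (1.85% of all genes were). At 1.5-fold, 2 were higher, Cyp7a1 and Cyp8b1 (4.42% of all genes were), and 1 was lower (5.93% of all genes were). These counts describe the group without a test.

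**Figure D2:**
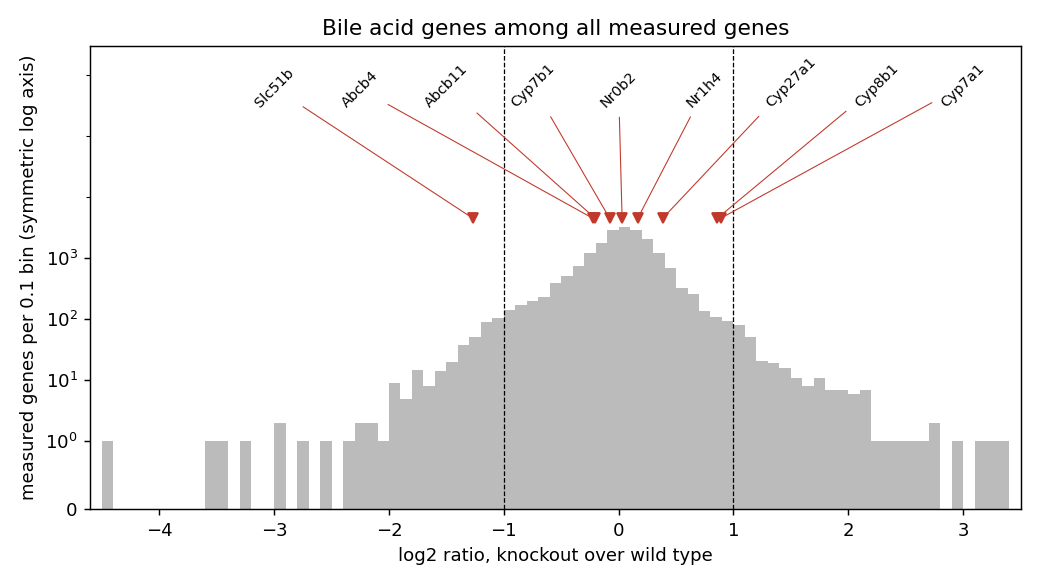
Number of measured genes in each bin of 0.1 of log2 ratio, knockout over wild type (symmetric log axis), for 19951 genes, with triangles at the ratios of the 9 measured bile acid genes and dashed lines at 2-fold. Slc51b lies beyond the lower line at -1.27, Cyp7a1 at 0.89 and Cyp8b1 at 0.86 lie just inside the upper line, and the other 6 lie in the bulk between -0.22 and 0.38.

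Scaling by another constant moved all of these ratios together, while quantile and loess scaling moved single genes by different amounts. Without scaling the median over all genes shifted by -0.25 and with scaling to 8 spike-in controls by -0.16; Cyp7a1 then read 0.64 and 0.72, Cyp8b1 0.61 and 0.70, and Cyp27a1 0.14 and 0.22. Cyp7a1, Cyp8b1 and Cyp27a1 stayed above 0, and Cyp7b1, Abcb11, Abcb4 and Slc51b below 0, in all 13 alternatives, whereas Nr1h4 and Nr0b2 crossed it as given above. Not all of the alternatives could change a sign. Other filters and probe summaries leave a gene with a single probe exactly or nearly unchanged, and the deposited value table uses nearly the same constants as the main scaling.

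**Figure D3:**
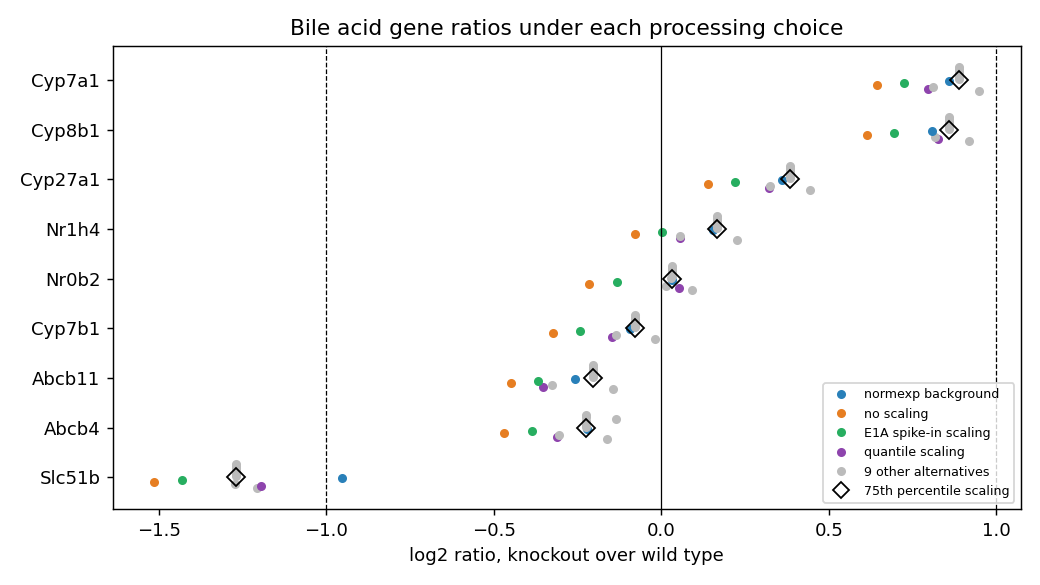
Log2 ratio, knockout over wild type, of the 9 measured bile acid genes under the scaling used here (diamonds) and 13 alternatives (dots; 4 in colour), with dashed lines at 2-fold. The spread is mostly a common shift to the left without scaling (orange) and with spike-in scaling (green); Slc51b also moves to the right, to -0.95, with the normexp background (blue).

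The wider pathway was described from 71 further genes grouped by role, of which 66 were measured: 47 lay above 0 and 19 below, with a median of 0.17. That majority depends on the scaling: 37 lay above 0 with quantile scaling, 35 with spike-ins and 23 without scaling, where the median was -0.07. At 2-fold, 3 were higher and 1 was lower, beside 1.29% and 1.85% of all genes. Among the 8 measured other sterol-modifying enzymes all lay above 0, with a median of 0.20, but under other scalings fewer did: 3 of 8 without scaling, 5 with quantile scaling, 6 with spike-ins and 7 with loess. Akr1d1, the reductase that saturates the sterol ring, had the highest ratio of them (0.68, 1.61-fold), followed by Cyp2a12 (0.43), which hydroxylates secondary bile acids again, and the cholesterol hydroxylase Cyp46a1 (0.31), known above all from brain. Cyp2c70, which makes the muricholic acids of mice, was at 0.15. Leaving out the scaling takes 0.25 from every ratio, so most of the small positive values here then turn negative. Ch25h, another cholesterol hydroxylase, was well above background in wild type alone, with signals of 16.9 and 7.39, which give no fold.

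Side-chain shortening and conjugation had 6 of 11 genes above 0 and a median of 0.03. Fewer lay above 0 under most other scalings, 3 of 11 with quantile, loess or spike-in scaling and 2 without scaling. The conjugating pair Slc27a5, which activates bile acids with coenzyme A, and Baat, which joins them to taurine or glycine, had ratios of 0.31 and 0.24, and the acyl-CoA synthetase Slc27a2 had 0.25. The acyltransferase Acnat2 was at -0.36.

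Hepatocyte uptake held the widest spread. Slc10a1 (NTCP), the main sodium-dependent uptake carrier, had a ratio of 0.29, with its 2 probes at 0.20 and 0.38. The organic anion transporter Slco1a4 was 2.18-fold higher, with signals of 4037 and 7420, and Slco1a1 was 6.57-fold lower, with signals of 1742 and 223.7 (log2 ratio -2.72). Probes for these close relatives can also bind each other's transcripts, and for Slco1a4 the ratio fell short of 2-fold without scaling (0.88) and with spike-ins (0.96). The sex of the animals in each pool is unstated, and its part in these 2 ratios was not tested. Among other canalicular genes the multidrug exporter Abcb1a was at 0.73, the conjugate pump Abcc2 at 0.40 and the membrane linker Ezr at -0.71. The other basolateral efflux pumps, Abcc4 (0.36) and Abcc3 (0.17), both lay above 0, on the opposite side from Slc51b; unscaled, Abcc3 lies below 0.

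The gut hormone that represses Cyp7a1 acts through Fgfr4 and its co-receptor Klb. Fgfr4 was at 0.16 and Klb at 0.10, and the heparan sulphate carrier Sdc4 at 0.48. Fgf15, the hormone itself, is made in ileum; its probe read 18.2 and 21.3, close to the lowest signals called well above background (14.7 and 17.9), and its ratio was 0.47. Among 15 measured regulators 10 lay above 0 (7 with spike-ins, 5 without scaling), with a median of 0.10. The coactivator Ppargc1a was 2.12-fold higher, with its 2 probes at 1.02 and 1.14, and it fell short of 2-fold without scaling (0.84), with spike-ins (0.92) and with normexp (0.95). Nr5a2, the receptor that drives Cyp7a1 and Cyp8b1, had 2 probes that disagreed, 0.00 and 0.50, and Hnf4a was at 0.23.

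Detoxification genes had the highest median of the role groups with 5 or more measured genes, 0.49, with 5 of 6 above 0 (4 without scaling). The sulfotransferase Sult2a1, which sulfates bile acids, read 31289 and 81290 (3.08-fold higher), on a probe that near-identical family members can also bind. For Sult2a1 too the part of the animals' sex was not tested. Other FXR target genes had a median of 0.19, with 7 of 9 above 0 (5 with quantile scaling and 2 without scaling), among them the HDL receptor Scarb1 (0.33). Pltp, a phospholipid transfer protein, was 1.93-fold lower, and past 2-fold without scaling (-1.20) and with spike-ins (-1.12). The ileal carrier Slc10a2 was at -0.36 and the ileal binding protein Fabp6 was not well above background in either pool.

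**Figure D4:**
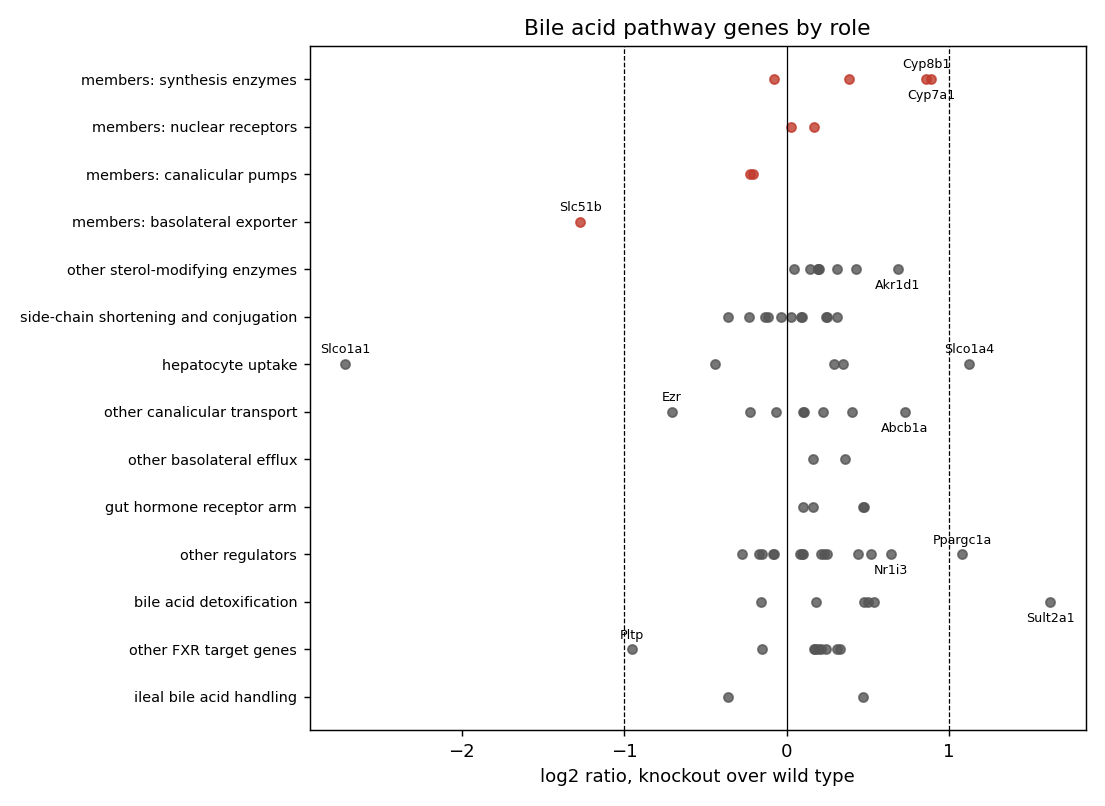
Log2 ratio, knockout over wild type, of each measured bile acid pathway gene by role, the 9 genes described in full in red and the 66 others in grey (4 of these appear in 2 roles), with dashed lines at 2-fold. Slco1a1 at -2.72 and Sult2a1 at 1.62 are the outermost points, and the 8 other sterol-modifying enzymes lie on the right of 0 under this scaling, though 3 of 8 do without scaling.

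Marker genes of liver cells were read beside these results. All 7 measured hepatocyte markers were bright, with a median of 0.16 that lay at -0.06 with quantile scaling, -0.02 with loess and -0.08 without scaling. The 10 periportal hepatocyte markers all lay above 0 (8 of 10 without scaling, 9 with loess or spike-ins), with a median of 0.93 and 3 at least 2-fold higher, and their summed signal was 620062 in wild type and 835540 in the knockout. The 10 pericentral markers had a median of 0.21 (-0.04 without scaling), with 6 above 0, and summed to 591810 and 604587. At 1.5-fold, 8 of the 10 periportal markers were higher (4.42% of all genes were), but Cyp2f2 (0.14) and Hsd17b13 (0.18) were not. Of the 10 pericentral markers 2 were higher, Oat (1.31) and Lhpp (0.68), and 1 was lower, Tbx3 (-0.59; 5.93% of all genes were lower). The pericentral markers Glul (-0.16), Lgr5 (-0.14) and Axin2 (-0.38) also lay below 0. Cyp7a1 and Cyp8b1 were thus higher in the same pool as most periportal markers, while the pericentral markers were mixed. The zone in which Cyp7a1 and Cyp8b1 are made was not measured. The part of zonation in the result was not tested.

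Slc51b stands beside other lists. The 11 cholangiocyte markers were all measured, with 5 above 0 and 6 below and a median of -0.05; their summed signal was 4833 in wild type and 6659 in the knockout. Krt23 gave 2342 and 4441 of these (ratio 1.17), while Krt19, a defining marker, was at -0.11. Kupffer cell markers all lay below 0 (10 of 10), with a median of -0.99 and 5 at least 2-fold lower, and summed to 140827 and 58249. T and B cell markers had a median of -0.97 over 7 genes and summed to 28346 and 16644. Cd4 gave 15481 and 11882 of these, with a ratio of 0.04 (probes at -0.14 and 0.22), and Cd3e was at -0.06. Most of the fall in the sum was Cd74, with signals of 10394 and 3276 (-1.42). Of 8 enterocyte markers 4 were measured, with a median of -0.46. Of these 3 lay below 0, and Vil1, with signals of 23.0 and 22.9, lay above it (0.24). The list summed to 42867 and 18493, most of it Fabp2 (-1.02), followed by Apoa4 with 3470 and 1989. Sis was well above background in wild type alone, and Cdh17, Lct and Fabp6 in neither pool. The list thus rests on few genes and does not show that enterocytes were present. Sinusoidal endothelial and stellate cell markers had medians of -0.23 and -0.29 over 8 genes each. The medians of these lists lay below 0, like Slc51b, under every scaling tried and with normexp. The exception was the cholangiocyte list, at 0.01 with median or quantile scaling, 0.12 with normexp and -0.30 without scaling. The part of these cells in the Slc51b ratio was not tested.

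Because several of these genes are known FXR targets, their promoters were searched for the sequence that FXR binds. RefSeq (GRCm38.p6) windows of 300 bases, from 250 before to 50 after the start of the gene, were matched for 8 of the 10 genes; none was matched for Cyp7a1 and Cyp7b1. The FXR-type motif is the core AGGTCA followed, after 1 base, by its reverse complement TGACCT; at most 2 mismatches were allowed, on both strands. It occurred in 1.14% of 32851 windows, and in 1 of the 8, that of Abcb11. The stretch of that promoter that holds its 2 matches, chr2:69342643-69342734, is written 5′ to 3′ on the gene's own minus strand, with the matches in capitals.
Abcb11 promoter: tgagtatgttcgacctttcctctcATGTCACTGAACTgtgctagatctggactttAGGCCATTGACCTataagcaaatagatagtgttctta

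The match nearer the start, from -63 to -51 counted from it, has 1 mismatch, and the farther one, from -94 to -82, has 2. Abcb11 was the gene with this match and had a ratio of -0.20. The core AGGTCA repeated in one direction after 1 base, with at most 2 mismatches, occurred in 3.86% of windows and in that of Nr1h4 alone, from -221 to -209. TCAAGGTCA with at most 1 mismatch, the type that Nr5a2 binds and that overlaps that core, occurred in 7.46% of windows and in none of the 8. A match describes letters and not binding, and these windows leave out sites farther away.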

How the data were processed

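Liver RNA of 1 wild-type and 1 Pnpla8-/- pool was measured on 2 arrays, grouped by the genotype label. Per the labels' protocols, RNA was column-purified and 200 ng was labelled with Cy3. Agilent Feature Extraction 11.5.1.1 was used by the authors, per the submitters' processing notes. The deposited scanner files give spot intensity on a linear scale, raw, background-subtracted and with its error. The deposited value table is also intensity: each array's processed signal divided by 1207 (wild type) or 1019 (knockout), with column medians of 0.0800 and 0.0763, linear and not centred per gene. The sources used here do not say why those constants were chosen.

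From the scanner files, log2 processed signals were centred on each array's 75th percentile. Control spots and spots with an outlier mark of their own (119 and 170) were left out, and spots of a probe were averaged. A probe was measured if over 0.5 of its spots were well above background on both arrays; a gene's ratio is the median over its measured probes. The software's spot errors were propagated to the log2 ratio. Over 290 probes with 8 or more spots the median SD of the ratio was 0.05, and over 4286 genes with several probes it was 0.10. These, and the number of arrays, limit the precision. Symbols for 28320 of 39429 probes came by accession, and for 2377 by name, from RefSeq's GRCm38.p6 gene table; 8721 kept the file's name and 11 are those of the 10 genes. The fixed ratio of 2-fold stands in place of a test.

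The genes, role lists and markers were chosen with earlier results of these data known. Named genes were the 10, Pnpla8, and in each role group those past 2-fold or otherwise the 3 largest ratios, plus Slc10a1, Slc27a5, Baat, Cyp2c70, Fgfr4, Klb, Fgf15, Nr5a2 and Hnf4a. Of the 71 further genes, no probe was matched for Ugt1a1 and Gsta1, which are not analysed here. Alternatives were median, quantile, loess (span 0.3), spike-in (8 controls) and no scaling, normexp (offset 50), the value table, other filters and probe summaries, and other fold thresholds; leaving out spots with a marked local background was added after seeing the data. The steps were run on fold changes planted in the wild-type array's own values, with the spread between probes as the only noise. That checks the calculation and holds no variation between animals or arrays. Python 3.11.15, pandas 2.3.3, numpy 2.4.6, statsmodels 0.14.6, matplotlib 3.10.9, and limma 3.58.1 in R 4.3.3 were used.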

Additional observations from a re-analysis of the deposited data

How the results depend on the processing

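Of 117 values of the 9 measured genes under the alternatives, 94 lay within 0.095 of the main value. That is the median SD between probes of a gene, not a spread between animals. A further 22 moved more without crossing 2-fold. Another 1 fell short of 2-fold (Slc51b), and 0 reversed a call at 2-fold, though Nr1h4 and Nr0b2 changed sign as given above. Many of the 94 could not differ, since other filters and probe summaries leave a gene with a single probe unchanged. With no scaling the median of the 9 genes was -0.22 and with spike-in scaling -0.13; the median over all genes moved with it, to -0.21 and -0.12, and of all genes past 2-fold 13.3% and 18.6% were then higher, against 41.1%, 50.6% with median scaling and 51.3% with normexp. At least 2-fold lower among the 9 were 0 with normexp, which left 128 of 19951 genes lower against 369, and 0 at a 3-fold threshold; at a 1.5-fold threshold 2 were higher. Of the other pathway genes, 1 was at least 2-fold higher with no scaling and 1 with spike-ins, 6 at 1.5-fold and 1 at 3-fold; 2 were lower with no scaling, 2 with spike-ins, 2 with no filter on dim probes and 3 at 1.5-fold. The added alternative left out 5 pathway genes with a marked local background, Sult2a1 and Slc10a1 among them, and none of the 9. With 1 array per group no replicate could be left out. No paired analysis was possible because each group had 1 array and no replicate number.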

Other observations

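The xenobiotic receptors that also sense bile acids and some cytochromes they induce were picked after their values were seen. Nr1i3 (CAR) had a log2 ratio of 0.64 and Nr1i2 (PXR) of 0.52; of the cytochromes they are known to induce, Cyp2b10 was at 0.50, Cyp3a11 at 0.48 and Cyp3a13 at 0.54. Rxra, the partner of these receptors and of FXR, was at 0.44, with 2 probes at 0.22 and 0.66. None reached 2-fold, and only Nr1i3 reached 1.5-fold, where 4.42% of all genes were higher. With no scaling 0.25 is taken from each, which leaves the 6 genes above 0 and the lower Rxra probe below it. Other enzymes did not all go the same way. In the detoxification list Sult2a8 was at 0.18 and Ugt2b5 at -0.16, beside the higher Sult2a1. Ephx1 of the uptake list was at -0.44, with its 2 probes at -0.50 and -0.38. Whether these receptors were more active was not tested.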
